A study of Mus musculus with 2 samples.

Results

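Saa3, Lcn2, Hp and Ptx3, which encode secreted acute-phase and innate defence proteins, Il6, Il1b and Tnf, which encode inflammatory cytokines, and Socs3 and Nfkbia, which encode feedback inhibitors of cytokine signalling, were followed through the cells of gonadal white adipose tissue (gWAT). These 9 of the 28692 genes in the count matrices were chosen by name, with earlier results of the same libraries known, in which Saa3 was higher in knockout fibroblasts. The knockout to control values in fibroblasts are therefore a description of how the genes were picked. All 9 genes had unique molecular identifiers (UMIs, each standing for 1 captured transcript) in both libraries.

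In this family of genes, IL-1β and TNF released by myeloid cells bind receptors on stromal and endothelial cells and release NF-κB from its inhibitor, and IL-6 acts through gp130, JAK kinases and STAT3. C/EBP factors act with both routes at acute-phase genes. NF-κB induces Nfkbia, whose product IκBα holds NF-κB in the cytoplasm again, and STAT3 induces Socs3, whose product blocks JAK signalling. Serum amyloid A3, lipocalin 2, haptoglobin and pentraxin 3 are made outside the liver as well, and in adipose tissue they are commonly read as signs of inflammation.

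The cells came from the stromal vascular fraction (SVF) of gWAT of male C57BL/6 mice aged 13 weeks, in 1 droplet library for each genotype. The knockout library (Adipo-Pgam1 KO) came from mice with the Adipoq-Cre transgene and both alleles of Pgam1 floxed (the gene of a glycolytic enzyme), and the control library from littermates with the same floxed alleles and without Cre, which the labels call wildtype. Adipoq-Cre acts in adipocytes, most of which the SVF isolation leaves behind, and which of the cells described here carried the deletion was not tested. The study reported lower Pgam1 in a KO fibroblast cluster of the SVF rich in adipocyte markers, and proposes that these were preadipocytes. That cluster was not singled out here. How many mice were pooled in a library is not given in the sources used here, and with 1 library for each genotype the difference between genotypes and the difference between libraries cannot be told apart. No test between genotypes was possible, and all intervals below are 95% intervals of counting error alone.

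The control library held 8522 barcodes with 42859406 UMIs and the KO library 2730 barcodes with 13821581 UMIs. Barcodes with 500 or more detected genes and no more than 10% mitochondrial UMIs were taken, and after removal of doublets 3616 control and 937 KO cells were left, with medians of 6898 and 7494 UMIs. The libraries shared 9 barcodes, none of them among the cells kept. Clustering gave 24 clusters, of which 17 carried the markers of 13 cell classes and 7 stayed unnamed. Pgam1 had 4254 and 1264 UMIs over all barcodes, a count that cannot check a deletion in adipocytes. In fibroblast-like cells as a whole Pgam1 stood at 108 CPM (102 to 115) and 104 CPM (93.2 to 116). Fibroblast-like cells numbered 785 (control) and 189 (KO) and were deeper among KO cells, with medians of 12306 and 17586 UMIs. All 8 fibroblast markers were found in them, Pdgfra in 99.0% of control and 94.2% of KO cells. Levels are given as UMIs of the gene per 1e+06 UMIs of the class (CPM). In summed counts, fewer positive cells and less RNA per cell give the same CPM, so the number of positive cells is given beside the level.

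The start regions of the genes were compared for binding motifs of the transcription factors above, because textbooks assign these genes to different routes of control. In the RefSeq promoter table (GRCm38.p6) 8 of the 9 genes matched, all but Hp. The 250 bases before the RefSeq start were searched on both strands for TTGCNNAA (C/EBP), TTCNNNGAA (STAT) and the κB consensus. Of all 32851 windows in the table, 9.56% held the C/EBP letters, 7.02% the STAT letters and 7.25% the κB consensus. Saa3, Lcn2, Ptx3 and Il6 held the C/EBP letters, Il6 and Nfkbia the κB consensus and Socs3 the STAT letters, while the windows of Il1b and Tnf held none of them. The windows of Lcn2 and Socs3 lay inside the annotated (GENCODE) gene and not upstream of it. A match is a description of the letters and not a site of binding. The windows of Saa3, Ptx3 and Il6, genes whose KO fibroblast UMIs came mostly from single cells, are shown whole up to the annotated gene, with the matches in capitals. Saa3 is chr7:46715701-46715926 on the minus strand, with the C/EBP letters at bases -99 to -92 from the RefSeq start. Ptx3 is chr3:66219637-66219886 on the plus strand, with the C/EBP letters at -57 to -50. Il6 is chr5:30012864-30013113 on the plus strand, with the C/EBP letters at -128 to -121 and the κB consensus at -44 to -35.
Saa3: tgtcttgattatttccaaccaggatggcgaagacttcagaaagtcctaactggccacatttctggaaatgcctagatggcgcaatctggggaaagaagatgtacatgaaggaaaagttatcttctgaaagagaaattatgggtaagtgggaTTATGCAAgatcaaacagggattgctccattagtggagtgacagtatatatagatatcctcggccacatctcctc
Ptx3: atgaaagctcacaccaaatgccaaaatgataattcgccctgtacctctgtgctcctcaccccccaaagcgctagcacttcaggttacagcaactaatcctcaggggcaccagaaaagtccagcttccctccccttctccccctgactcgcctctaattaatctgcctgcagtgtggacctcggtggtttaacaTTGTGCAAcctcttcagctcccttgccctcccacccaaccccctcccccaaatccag
Il6: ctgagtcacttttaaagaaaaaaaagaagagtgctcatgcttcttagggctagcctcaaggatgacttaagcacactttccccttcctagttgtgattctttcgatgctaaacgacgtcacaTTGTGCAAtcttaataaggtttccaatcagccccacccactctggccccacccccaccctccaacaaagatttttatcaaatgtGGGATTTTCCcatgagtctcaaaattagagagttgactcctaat

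For Socs3, the gene with the broadest difference between the libraries, the STAT letters stood at -154 to -146 from the RefSeq start, inside the GENCODE gene, which starts further upstream. The 28 bases around the match are chr11:117969503-117969530 on the minus strand.
Socs3: gaaaccagccTTCTTAGAAgggaggggg

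**Figure D1:**
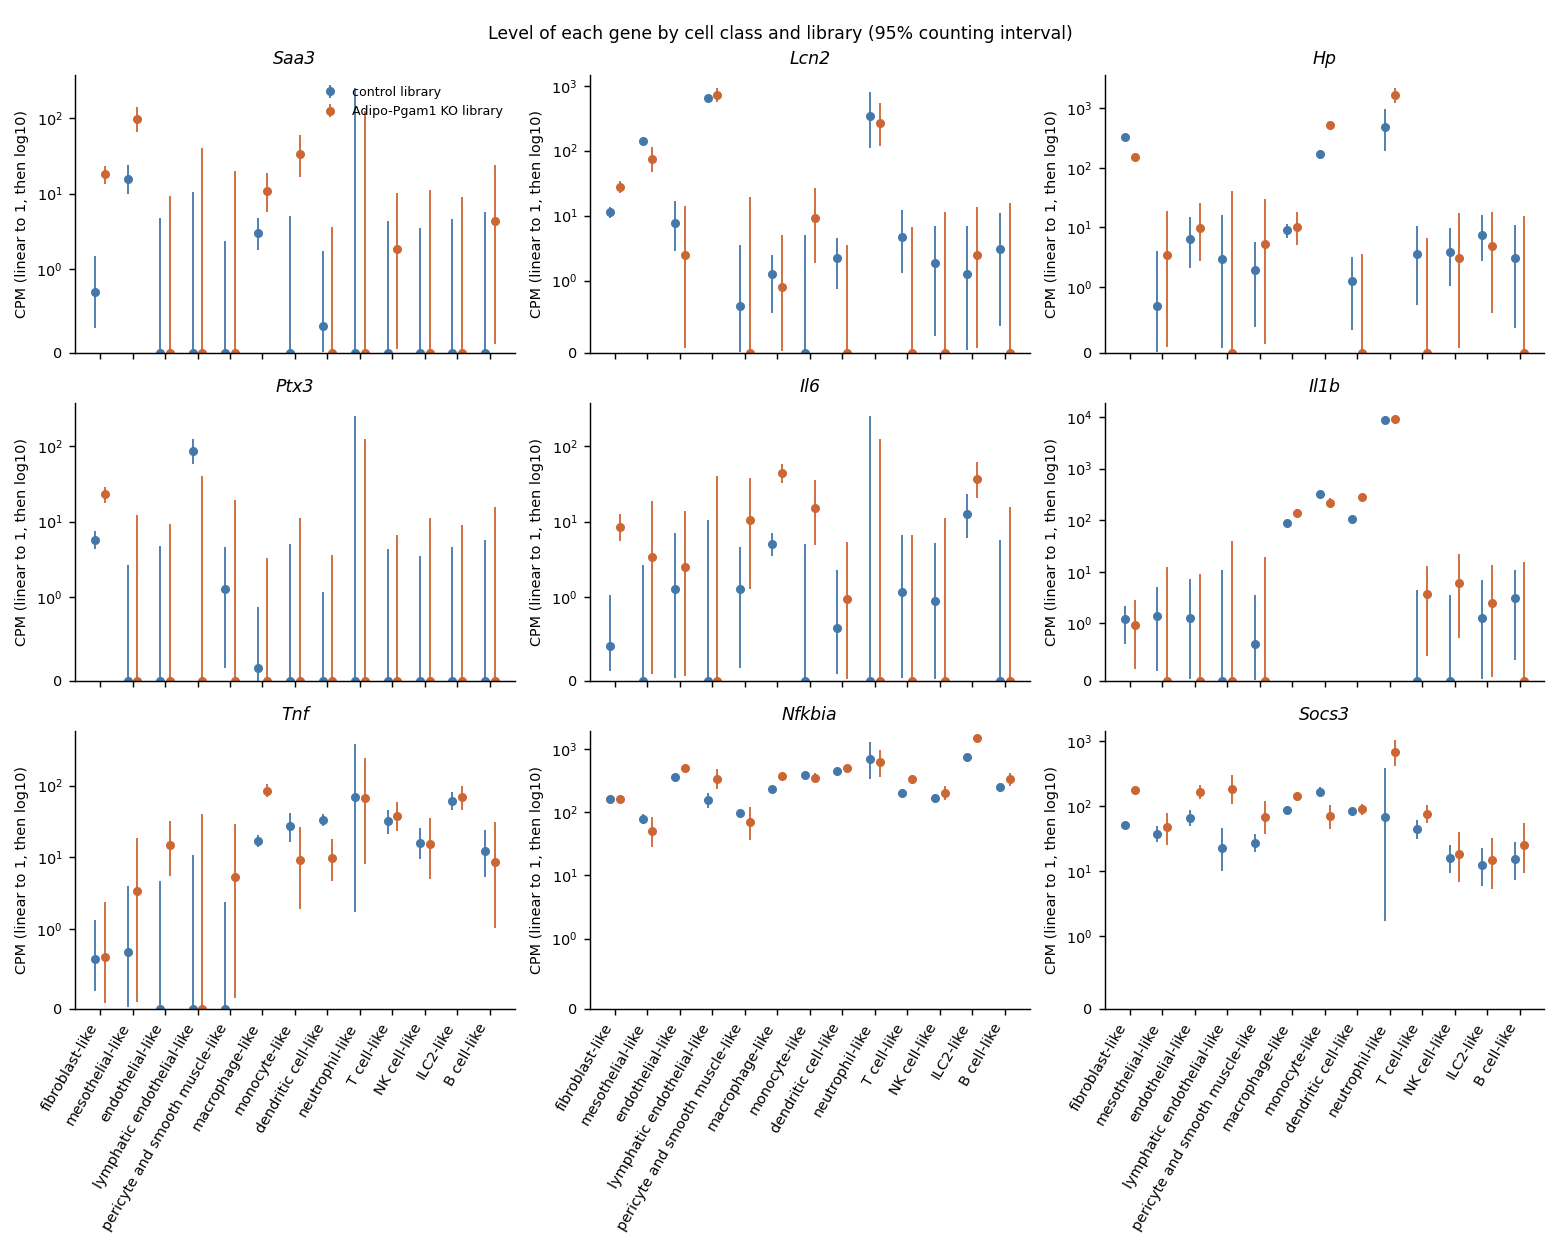
Level of each of the 9 genes in CPM (vertical axis, linear up to 1 and log10 above) in 13 cell classes (horizontal axis), with the control library in blue and the Adipo-Pgam1 KO library in orange. Bars are 95% Poisson intervals of the summed UMIs. In the fibroblast-like cells Socs3 stood at 52.0 and 180 CPM, and Il1b was highest in neutrophil-like cells, at 8823 and 9258 CPM.

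The classes differed in which of the genes they expressed. Saa3, the serum amyloid A gene of extrahepatic tissues and macrophages, was rare everywhere, with 51 UMIs in all control and 109 in all KO cells kept. Of the control UMIs 43.1% lay in mesothelial-like, 37.3% in macrophage-like and 13.7% in fibroblast-like cells. Of the 109 KO UMIs 55 lay in fibroblast-like, 29 in mesothelial-like, 12 in macrophage-like and 11 in monocyte-like cells. No Saa3 UMI was found in endothelial-like, pericyte and smooth muscle-like, NK cell-like or ILC2-like cells of either library. For the 218 control pericyte and smooth muscle-like cells this allows a level of up to 1.92 CPM.

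Lcn2, whose product binds bacterial siderophores, was highest among the named classes in lymphatic endothelial-like cells, at 640 CPM (559 to 730) in control cells against 731 CPM (567 to 929) in KO cells. It was found in 47 of 56 and 11 of 12 of these cells, so most of the cells carried it in both libraries. Mesothelial-like cells came next among stromal classes, at 142 CPM (123 to 164) in control cells against 74.1 CPM (46.4 to 112) in KO cells, with UMIs in 59 of 106 and 10 of 20 cells. Beside these classes the fibroblast-like cells were low, at 11.3 and 27.8 CPM. The 16 neutrophil-like cells, a class known for Lcn2 granules, held 5 control and 8 KO Lcn2 UMIs, which stood for 342 and 270 CPM. Unnamed clusters held 30% of all control and 72.4% of all KO Lcn2 UMIs, against 27.4% and 9.85% in lymphatic endothelial-like cells.

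Hp, which encodes the haemoglobin-binding protein haptoglobin, was found in fibroblast-like, monocyte-like and neutrophil-like cells. The control levels were 327 CPM in fibroblast-like cells, 169 CPM (140 to 201) in monocyte-like cells and 479 CPM (192 to 986) in 7 neutrophil-like cells. The interval of the neutrophil-like cells overlapped that of the fibroblast-like cells, 316 to 339 CPM, while the monocyte-like cells lay below it. T cell-like cells, which are not known to make haptoglobin, held Hp UMIs in 1.06% of 189 control and 0 of 90 KO cells at medians of 4373 and 6072 UMIs, the latter allowing up to 3.33% of cells.

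Ptx3, the long pentraxin that opsonises microbes, was found in fewer classes. The control lymphatic endothelial-like cells held 30 UMIs in 12 of 56 cells, a level of 86.5 CPM (58.4 to 123). The 12 KO lymphatic endothelial-like cells held none, which allows up to 32.7 CPM, and the control level lay above that limit. However, 1 control cell held 11 of the 30 UMIs. By cells, no positive cell among 12 allows a share of up to 25%, and the control share of 12 of 56 lay below that limit. Fibroblast-like cells stood at 5.69 and 22.9 CPM, and mesothelial-like, endothelial-like, monocyte-like, dendritic cell-like and lymphoid classes had 0 UMIs in both libraries.

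The cytokines separated by lineage. Il1b, the IL-1β precursor, was carried by all 7 control and all 9 KO neutrophil-like cells, at 8823 CPM (7366 to 10484) and 9258 CPM (8194 to 10422), and next by monocyte-like cells in the control (318 CPM) and by dendritic cell-like cells in the KO (283 CPM, an interval that overlapped that of the monocyte-like cells at 217 CPM). Il6 was highest in macrophage-like and ILC2-like cells, at 5.05 and 12.5 CPM in control cells, with overlapping intervals of 3.45 to 7.13 and 5.99 to 23.0 CPM. Tnf was highest among classes of more than 100 cells in control ILC2-like cells, at 61.3 CPM (45.3 to 81.0). Both feedback inhibitors were found in every class of both libraries. Nfkbia ranged from 77.6 CPM in mesothelial-like to 745 CPM in ILC2-like control cells.

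Across 23 groups (12 classes by library, with at least 20 cells in a group), the genes most like each member by Pearson's r of log2(CPM + 1) were also followed. These groups share libraries and depth, so the values are descriptions. Ptx3 was most like Cldn11, at r = 0.957, and Lcn2 most like Sema3a, at r = 0.92. Il1b was most like Clec4a3, at r = 0.955, and Tnf most like Nfkbid, at r = 0.85. Nfkbia was most like the immediate early gene Junb, at r = 0.928, Hp most like Apoc1, at r = 0.827, and Saa3 most like Manf, at r = 0.787. The lowest of these were Socs3 with Insig1, at r = 0.765, and Il6 with Slc7a8, at r = 0.74. Most Saa3 UMIs of a class lay in single cells, so the value for Saa3 rests on few cells.

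Fibroblast-like cells were the class in which the genes had been picked. Of the 6 members with at least 50 UMIs there, Saa3, Lcn2, Ptx3 and Socs3 were past 2-fold higher in KO cells and Hp past 2-fold lower. Of all 10585 genes with as many UMIs, 1.41% were as much higher and 1.7% as much lower, with a median log2 ratio of -0.10, and nothing is read from the member counts in this class. The 4 higher genes differed in how many cells carried them.

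Saa3 had 7 UMIs in 2 of 785 control fibroblast-like cells, 6 of them in 1 cell, a level of 0.724 CPM (0.291 to 1.49). Its 55 KO UMIs, a level of 18.0 CPM (13.6 to 23.4), all lay in 1 of 189 cells. The KO/control log2 ratio was 4.64 (3.50 to 6.02), and without that 1 cell Saa3 had no UMI in KO fibroblast-like cells. The summed level thus differed between the libraries, whereas the share of Saa3-positive cells was 0.255% (0.0309 to 0.917) and 0.529% (0.0134 to 2.91), with overlapping intervals.

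The 1 KO cell with Saa3 held 19262 UMIs of 4646 genes and belonged to the fibroblast cluster led by Cilp, Pi16 and Fbn1. All 8 fibroblast markers were found in it, and none of the mesothelial, macrophage, neutrophil, Schwann or adipocyte markers. Of the other marker sets it held 2 monocyte, 2 plasma cell, 1 pericyte and smooth muscle, 1 ILC2 and 4 erythroid markers. It also held 40 of the 70 Ptx3 UMIs and 41 of the 464 Hp UMIs of the KO fibroblast-like cells, 4 UMIs of Lcn2, 11 of Nfkbia and 3 of Socs3, and none of Il6, Il1b or Tnf. Among genes with at least 20 UMIs in the cell, those furthest above the other KO fibroblast-like cells after Saa3 and Ptx3 were the metallothionein gene Mt2 (86.2 against 1.35 per 10000 UMIs), Enc1, and the monocyte chemokine genes Ccl7 (49.8 against 2.27) and Ccl2 (21.3 against 1.02). This cell thus carried acute-phase and chemokine genes together. These genes were picked after their values were seen.

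Ptx3 had 55 UMIs in 43 control cells, with at most 3 in a cell, and 70 UMIs in 24 KO cells. The levels were 5.69 CPM (4.29 to 7.41) and 22.9 CPM (17.9 to 28.9), a log2 ratio of 2.01 (1.48 to 2.55). Without the 1 cell with the most Ptx3 UMIs in each library the ratio was 0.87 (0.17 to 1.55), under 2-fold. The share of cells with a Ptx3 UMI was 5.48% (3.99 to 7.31) and 12.7% (8.31 to 18.3), and none of 189 control or 90 KO T cell-like cells held one, which allows shares of up to 1.59% and 3.33%. After thinning each cell to 2000 UMIs the expected shares were 1.07% (0.447 to 2.02) and 2.43% (0.874 to 6.13), with overlapping intervals.

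Lcn2 had 109 UMIs in 66 control cells and 85 UMIs in 19 KO cells. The levels were 11.3 CPM (9.26 to 13.6) and 27.8 CPM (22.2 to 34.4), a log2 ratio of 1.30 (0.88 to 1.72). Another KO cell, with no Saa3 UMI, held 58 of the 85, and without the leading cell of each library the ratio was -0.25 (-0.92 to 0.38). The share of positive cells was 8.41% and 10.1%, so the direction of the summed ratio rested on that 1 cell.

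Il6 followed the same pattern with fewer counts. It had 4 UMIs in 4 control cells and 26 UMIs in 3 KO cells, and 24 of these lay in 1 cell with neither Saa3 nor Lcn2 UMIs. Il1b had 12 and 3 UMIs and Tnf 6 and 2 UMIs in fibroblast-like cells, in 1.40% and 1.59% and in 0.764% and 1.06% of cells. Mesothelial-like cells, of like depth, held an Il1b UMI in 1.89% of control cells. The Il1b and Tnf shares were read as background, and no difference between the libraries was detectable at this depth.

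**Figure D2:**
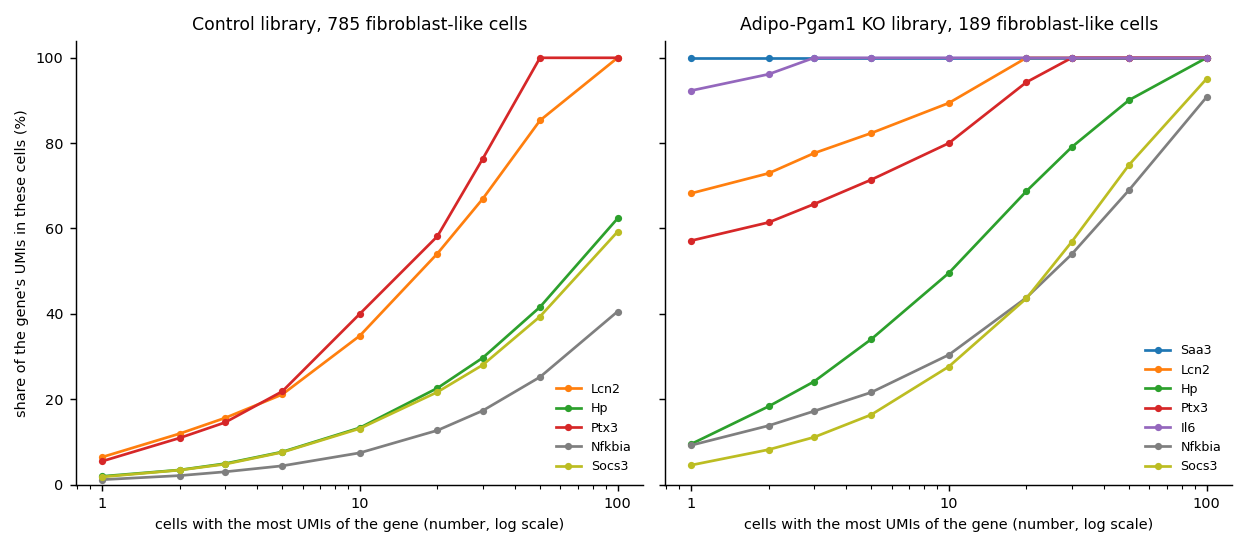
Share of the UMIs of a gene (vertical axis, percent) held by the fibroblast-like cells with the most UMIs of that gene (horizontal axis, number of cells, log scale), for the control library on the left and the Adipo-Pgam1 KO library on the right. Genes with at least 20 UMIs in the library are drawn. In the KO library 1 cell held 100% of the Saa3, 92.3% of the Il6, 68.2% of the Lcn2 and 57.1% of the Ptx3 UMIs, and 4.55% of the Socs3 UMIs.

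Socs3 differed from those genes in its spread over cells. It had 503 UMIs in 301 of 785 control and 550 UMIs in 127 of 189 KO fibroblast-like cells. The levels were 52.0 CPM (47.6 to 56.8) and 180 CPM (165 to 196), a log2 ratio of 1.79 (1.61 to 1.97). The share of cells with a Socs3 UMI was 38.3% and 67.2%. The KO cells were deeper, and after thinning each cell to 2000 UMIs, which left out 10 control and 2 KO cells, the expected shares were 9.69% and 25.1%, with intervals that did not overlap. B cell-like cells, a class with low Socs3, held it in 7.46% and 15.8% of cells at medians of 3999.5 and 4892 UMIs, or 4.16% and 6.06% after thinning.

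The leading Socs3 cell held 1.79% of the control and 4.55% of the KO UMIs. Without it the log2 ratio was 1.75 (1.57 to 1.93), and without the 10 leading cells of each library 1.59 (1.39 to 1.79). At least 5 Socs3 UMIs were found in 13 control cells, or 1.66%, and in 42 KO cells, or 22.2%. Both fibroblast clusters showed the difference, at log2 ratios of 1.60 (1.39 to 1.82) in the cluster led by Abca8a and 2.18 (1.86 to 2.51) in the cluster led by Cilp and Pi16. Cells with a UMI of the progenitor genes Pi16 or Dpp4 had a log2 ratio of 2.18 (1.91 to 2.45) and those without 1.48 (1.24 to 1.72). The intervals of the 2 kinds of cells did not overlap, and this difference was not tested.

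Hp went the other way. It had 3164 UMIs in 443 control and 464 UMIs in 85 KO fibroblast-like cells, at 327 CPM (316 to 339) and 152 CPM (138 to 166), a log2 ratio of -1.11 (-1.25 to -0.97). As many as 5 Hp UMIs or more were found in 26.0% of the control against 13.2% of the KO cells, and the share with any was 56.4% (52.9 to 59.9) and 45.0% (37.7 to 52.4). In the Abca8a cluster the levels were 438 and 166 CPM, a log2 ratio of -1.40 (-1.57 to -1.23). In the Cilp and Pi16 cluster the levels were 144 and 126 CPM, a log2 ratio of -0.19 (-0.47 to 0.08). The split by Pi16 or Dpp4 UMIs ran the same way, at -2.03 (-2.26 to -1.81) in cells without and -0.04 (-0.23 to 0.16) in cells with such a UMI. The KO cell with the Saa3 UMIs held 41 of the 138 KO Hp UMIs of the Cilp and Pi16 cluster, and without the leading cell of each library the log2 ratio there was -0.55 (-0.88 to -0.23), against -1.56 (-1.74 to -1.38) in the Abca8a cluster. The difference between the kinds of cells was not tested.

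Nfkbia, the other feedback inhibitor, had 1576 and 500 UMIs, at 163 CPM (155 to 171) and 164 CPM (150 to 179), a log2 ratio of 0.005 (-0.14 to 0.15). It was found in 73.5% and 77.2% of cells, and the intervals of the Socs3 and Nfkbia ratios did not overlap.

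**Figure D3:**
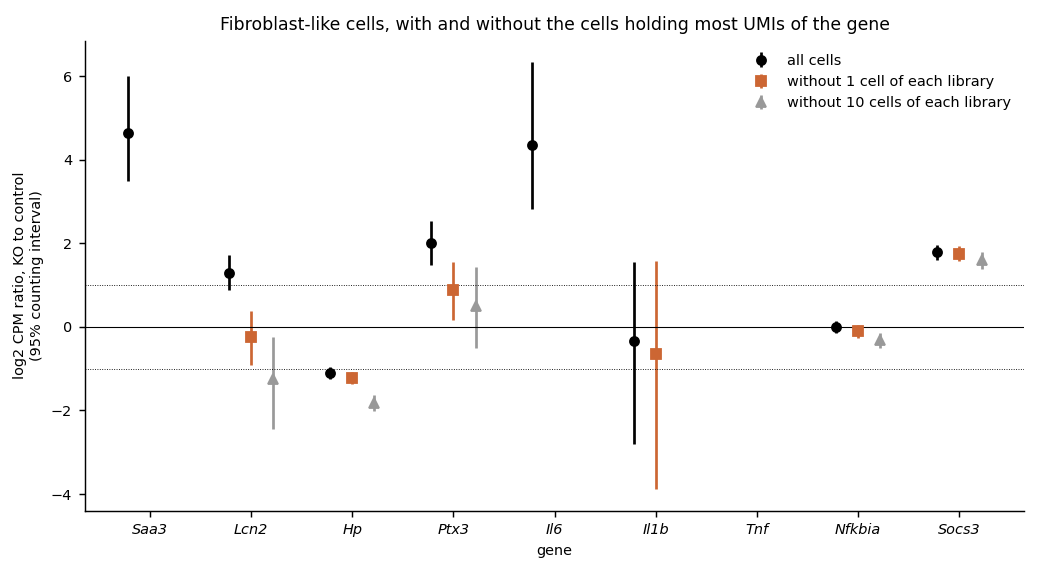
Log2 CPM ratio of KO to control in fibroblast-like cells (vertical axis) for each gene (horizontal axis), over all cells (circles), without the 1 cell (squares) and without the 10 cells (triangles) with the most UMIs of the gene in each library. Bars are 95% counting intervals, dotted lines mark 2-fold, and points are left out where under 10 UMIs remained or 1 library had none. Lcn2 moved from 1.30 to -0.25 without 1 cell, while Socs3 stayed between 1.59 and 1.79.

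**Figure D4:**
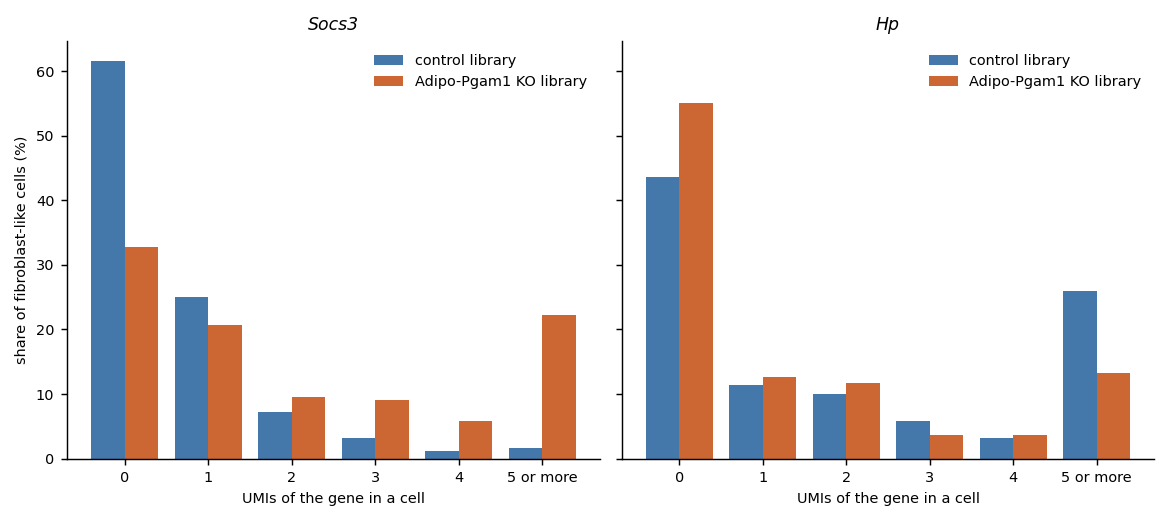
Share of fibroblast-like cells (vertical axis, percent) by the number of Socs3 (left) or Hp (right) UMIs in the cell (horizontal axis), in the control library (785 cells, blue) and the Adipo-Pgam1 KO library (189 cells, orange). Cells with no Socs3 UMI made up 61.7% of control and 32.8% of KO fibroblast-like cells, and cells with no Hp UMI 43.6% and 55.0%.

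Markers of other cells differed between the fibroblast-like cells of the libraries, and their part in these results was not tested. Mesothelial markers summed to 10.8 CPM in control cells, with 8 of 8 found, and to 0.654 CPM in KO cells, with Upk3b, Upk1b, Msln, Krt19, Krt7 and Muc16 at 0. Macrophage markers summed to 41.4 and 13.7 CPM, with Adgre1 at 0 in KO cells. Schwann markers summed to 15.4 CPM in control cells, with 5 of 6 found and Sox10 at 0, and to 109 CPM in KO cells, with 6 of 6 found. Neutrophil markers summed to 1.76 and 2.94 CPM, and adipocyte markers to 10.4 and 7.53 CPM. Without cells holding at least 3 mesothelial, macrophage or Schwann markers the log2 ratios were 4.64 for Saa3, 1.75 for Socs3 and -1.10 for Hp.

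The other genes of the pathways stood closer together in fibroblast-like cells. Of 14 other acute-phase genes 5 had at least 50 UMIs and none was past 2-fold in either direction, with a median log2 ratio of 0.06 beside -0.10 for all genes tested. Among them C3, the central complement component, stood at 2935 and 5322 CPM, a log2 ratio of 0.86 (0.83 to 0.89), and the copper carrier gene Cp at 1074 and 987 CPM. The hepatic genes Saa1 and Saa2 had 3 and 2 UMIs in control cells and none in KO cells. None of 12 other ligands of the IL-1, TNF and IL-6 families was past 2-fold among the 3 tested, and none of 9 receptors tested, where Il6st, the gene of gp130, stood at 285 and 290 CPM.

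All 12 listed NF-κB factors and feedback genes were tested and none was past 2-fold, with a median of 0.13. Nfkb2, of the non-canonical arm, had the log2 ratio furthest from 0, at 0.81 (0.31 to 1.30). Of 8 JAK, STAT3 and C/EBP genes tested none was past 2-fold, at a median of -0.10. Stat3 stood at -0.05 (-0.20 to 0.09), the STAT target Pim1 at 0.60 (0.31 to 0.89), Cebpb at 0.81 (0.67 to 0.94), Bcl6 at -0.81 (-1.06 to -0.58) and Tyk2 at -0.91 (-1.59 to -0.30). Inflammasome genes, with 4 of 7 tested, had a median of -0.42 and none past 2-fold.

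The immediate early genes, which tissue dissociation is known to induce, were the list with members past 2-fold. All 14 were tested, and Fos (577 and 1328 CPM), Fosb (129 and 372 CPM), Atf3 (10.1 and 41.2 CPM) and Btg2 (53.2 and 147 CPM) were past 2-fold higher in KO cells, at a list median of 0.61. The median over all genes was -0.10, and Ier2 stood at -0.05 (-0.19 to 0.09). Socs3 is itself an early response gene, and the part of dissociation in its level was not tested.

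Among macrophage-like cells 2 cytokine genes differed past 2-fold. Of 6 members tested there, Il6 and Tnf were past 2-fold higher in KO cells and none was as much lower, beside 1.53% higher and 5% lower of 8798 genes. The class comprised a cluster led by Pf4 and C1qc, with 358 control and 33 KO cells, and a cluster led by Lyz1 and Mmp12, with 301 and 61, so most control cells lay in the former and most KO cells in the latter.

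Il6 had 32 UMIs in 19 of 659 control and 48 UMIs in 7 of 94 KO macrophage-like cells, at 5.05 CPM (3.45 to 7.13) and 43.5 CPM (32.0 to 57.6). The log2 ratio was 3.11 (2.43 to 3.80), and 2.67 (1.84 to 3.50) without the leading cell of each library. Nearly all KO UMIs, 46 of 48, lay in the Lyz1 cluster.

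Tnf had 108 UMIs in 81 control and 94 UMIs in 25 KO macrophage-like cells, at 17.0 CPM (14.0 to 20.6) and 85.1 CPM (68.8 to 104), a log2 ratio of 2.32 (1.91 to 2.73). A single KO cell held 55 of the 94, and without the leading cells the ratio was 1.16 (0.59 to 1.71). That KO cell, in the Lyz1 cluster, held only 2 of the 8 macrophage markers. Beside these it held 3 ILC2, 3 plasma cell, 3 erythroid, 2 fibroblast and 2 dendritic cell markers. It also held 1 monocyte, 1 neutrophil and 1 pericyte and smooth muscle marker, so its class is uncertain. The share of cells with a Tnf UMI was 12.3% and 26.6%, or 3.42% (2.14 to 5.21) and 9.30% (3.68 to 17.6) after thinning, with overlapping intervals. The deeper fibroblast-like cells, which are not known as a source of TNF, held one in 0.764% and 1.06% of cells.

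Il1b depended on the macrophage cluster. In the Pf4 cluster it stood at 25.7 and 181 CPM, a log2 ratio of 2.81 (2.26 to 3.37), but 33 of its 52 KO UMIs lay in 1 cell, and without the leading cell of each library the levels were 18.8 and 69.8 CPM, a log2 ratio of 1.89 (1.04 to 2.69). In the Lyz1 cluster Il1b stood at 127 and 125 CPM, a log2 ratio of -0.03 (-0.35 to 0.28). Socs3 also stood higher in the Pf4 cluster, at 120 and 299 CPM, and Nfkbia at 176 and 386 CPM. Their log2 ratios were 1.32 (0.96 to 1.67) and 1.13 (0.82 to 1.44), against 0.43 (0.03 to 0.81) and 0.39 (0.20 to 0.58) in the Lyz1 cluster. The 33 KO cells of the Pf4 cluster carry these values, and the difference between clusters was not tested.

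Saa3 in macrophage-like cells again lay in single cells, with 18 of 19 control UMIs in 1 cell and 9 of 12 KO UMIs in 1 cell. Among the pathway lists, the IL-1 antagonist gene Il1rn (57.0 and 190 CPM), Osm (7.26 and 28.1 CPM), Socs1, Cish, Cebpb (352 and 861 CPM) and Nlrp3 (14.0 and 37.1 CPM) were past 2-fold higher in KO cells. The heat shock genes Hspa1a and Hspa1b, of the dissociation list, stood at 17.2 and 121 CPM and at 18.2 and 129 CPM, the largest log2 ratios among the listed genes that are no members, and their part in the cytokine values was not tested.

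Dendritic cell-like cells showed Il1b and Tnf on opposite sides. Of 4 members tested Il1b was past 2-fold higher and Tnf past 2-fold lower in KO cells, beside 1.01% higher and 2.92% lower of 7128 genes. Il1b stood at 108 CPM (96.6 to 120) in 60 of 256 and 283 CPM (251 to 317) in 26 of 65 cells, a log2 ratio of 1.39 (1.16 to 1.62). Without the 10 leading cells of each library, which held 88.7% of the KO UMIs, the ratio was -0.31 (-0.90 to 0.24). That step left out 10 of 65 KO but 10 of 256 control cells, a larger part of the KO cells. Tnf stood at 33.1 CPM (27.1 to 40.1) and 9.71 CPM (4.66 to 17.9), in 23.4% and 10.8% of cells, a log2 ratio of -1.77 (-2.87 to -0.83). The cluster led by Naaa, Irf8 and Xcr1 held 28 and 118 Il1b UMIs, at 29.6 and 242 CPM, and the larger cluster led by Ccl22 stood at 141 and 320 CPM, a log2 ratio of 1.18 that was 0.84 (0.51 to 1.16) without the leading cell of each library.

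In monocyte-like cells Hp was past 2-fold higher and Socs3 past 2-fold lower in KO cells, of 4 members tested, beside 3.46% higher and 5.69% lower of 3410 genes. Hp stood at 169 CPM (140 to 201) in 47 of 112 and 525 CPM (450 to 610) in 22 of 26 cells, a log2 ratio of 1.64 (1.30 to 1.98), or 0.77 (0.05 to 1.46) without the 10 leading cells of each library. These 10 were a larger part of the 26 KO than of the 112 control cells. After thinning, the expected shares of cells with an Hp UMI were 22.4% (14.6 to 31.0) and 49.8% (29.9 to 70.1). Socs3 stood at 165 CPM (137 to 197) and 70.2 CPM (44.5 to 105), a log2 ratio of -1.23 (-1.94 to -0.58), and Il1b at -0.55 (-0.96 to -0.17). The makeup of the class moved with these values. Ly6c2 and Chil3, genes of classical monocytes, were found in 29.5% and 29.5% of control against 73.1% and 57.7% of KO cells, and Treml4 and Adgre4, genes of nonclassical monocytes, in 76.8% and 85.7% against 42.3% and 61.5%. The KO monocyte-like cells were also deeper, with medians of 6225.5 control and 12990.5 KO UMIs, and the part of makeup and depth in the Hp and Socs3 values was not tested. All 11 Saa3 UMIs of the KO monocyte-like cells lay in 1 cell, which held 8 macrophage, 4 monocyte and 3 fibroblast markers.

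The remaining stromal and vascular classes gave small counts. In mesothelial-like cells Saa3 was the 1 of 4 tested members past 2-fold higher and none was as much lower, beside 1.26% and 4.22% of 5330 genes. Its 22 control and 29 KO UMIs lay in 3 of 106 and 2 of 20 cells, with 20 and 28 of them in 1 cell each. Lcn2 in these cells stood at a log2 ratio of -0.94 (-1.65 to -0.30). In endothelial-like cells Socs3 stood at 66.6 and 164 CPM, a log2 ratio of 1.30 (0.75 to 1.85), in 31 of 151 and 15 of 60 cells. Of the 66 KO UMIs 19 lay in 1 cell, and the ratio was 0.97 (0.36 to 1.59) without the leading cell and -0.90 (-2.65 to 0.53) without the 10 leading cells of each library. These 10 were a larger part of the 60 KO than of the 151 control cells. Over all cells Socs3 was the 1 of 2 tested members past 2-fold higher, with none as much lower, beside 1.46% and 3.49% of 4180 genes. In lymphatic endothelial-like cells Socs3, with 8 and 17 UMIs, stood at 23.1 CPM (9.96 to 45.4) and 186 CPM (108 to 297), and Nfkbia at 153 and 338 CPM. Nfkbia was the 1 of 2 tested members past 2-fold higher, with none as much lower, beside 2.86% and 8.51% of 1574 genes, but its log2 ratio of 1.15 (0.46 to 1.81) was 0.80 (-0.03 to 1.59) without the leading cell of each library. Of 10 immediate early genes tested in lymphatic endothelial-like cells, 6 were past 2-fold higher and none lower, at a list median of 1.12. The median over all genes there was -0.14, and the part of dissociation in the Socs3 and Nfkbia values was not tested. In pericyte and smooth muscle-like cells Socs3, with 43 and 13 UMIs, stood at 27.6 and 69.0 CPM, a log2 ratio of 1.32 (0.31 to 2.25), or 1.10 (-0.14 to 2.17) without the leading cell of each library. It was the 1 of 2 tested members past 2-fold higher, with none as much lower, beside 3.06% and 11.3% of 5681 genes. Most control cells of the class, 126 of 218, lay in the cluster led by Abcc9 and Kcnj8, and most KO cells, 14 of 21, in the cluster led by Tagln, so the makeup of the class differed too.

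Among lymphoid cells Nfkbia in ILC2-like cells came closest to 2-fold. It stood at 745 CPM (686 to 807) and 1457 CPM (1342 to 1580), a log2 ratio of 0.97 (0.80 to 1.13), in 146 of 178 and 57 of 60 cells, and without the 10 leading cells the ratio was 0.74 (0.53 to 0.94). Of 11 immediate early genes tested in ILC2-like cells, 4 (Jun, Egr1, Ier3 and Btg2) were past 2-fold higher, at a list median of 0.71. In the other lists the NF-κB feedback gene Tnfaip3, at 1.12 (0.93 to 1.31), and Cebpb, at 1.27, were past 2-fold higher. Socs1, at -1.12, and C3, at -1.05, were past 2-fold lower. The KO ILC2-like cells were also deeper, with medians of 4451 control and 6951 KO UMIs. The part of dissociation and depth in the Nfkbia value was not tested. No tested member was past 2-fold in T cell-like, NK cell-like, ILC2-like or B cell-like cells, in either direction. Beside this, 0.912%, 0.899%, 2% and 1.9% of genes in these classes were as much higher and 2.1%, 2.79%, 2.72% and 3.21% as much lower. In the 7 control and 9 KO neutrophil-like cells Hp was the 1 of 2 tested members past 2-fold higher, with none as much lower, beside 6.54% and 2.8% of 107 genes. It stood at a log2 ratio of 1.82 (0.67 to 3.21) there, and Il1b at 0.07 (-0.24 to 0.38).

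Among the unnamed clusters, a cluster of 112 cells led by Dcdc2a, Mt3 and Calml3 held Lcn2 at 640 CPM in control cells and 2637 CPM in KO cells, with 229 and 485 UMIs, of which 295 KO UMIs lay in 1 cell. It carried none of the class names used here.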

How the data were processed

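Single-cell RNA sequencing of gWAT SVF was analysed, with 1 library (10x Chromium 3′) for each genotype. Per the labels and the study's methods, the authors aligned reads to mm10 and counted UMIs with Cell Ranger 3.0.1, and the deposited values are raw UMI counts per gene and barcode. Their Seurat 3.1.5 annotation was not used here, so the cell classes are rebuilt. The 9 genes and the pathway and marker lists were chosen with earlier results of these data known.

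Barcodes passed with 500 or more genes and no more than 10% of UMIs from mitochondrial genes. Scrublet scores ranked the barcodes of each library, and the highest, 0.8% per 1000 barcodes, were dropped as doublets (265 control and 21 KO). After normalisation to 10000 counts per cell, 2000 variable genes and 30 principal components gave a graph of 20 shared neighbours for Leiden clustering at resolution 0.5, to which the 90 genes of the member and pathway lists and Pgam1 did not contribute. A cluster was named from its markers' mean z-score (above 0.5, and 1 above the next class, with at least 3 markers found in at least 10% of cells). Parts of that rule were set after seeing the data.

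UMIs were summed by class and library and given as CPM with exact Poisson intervals, shares with Clopper-Pearson intervals and ratios with conditional binomial intervals, at 95%. They cover counting error only. A count of 0 was read as up to 3. Shares after thinning to 2000 UMIs are the exact expected shares over all draws, chosen after seeing that single draws varied. Ratios needed at least 10 UMIs, and the counts of genes past 2-fold at least 50. No p-value was computed. Genes named by rule are the 9 members, list genes past 2-fold in fibroblast-like cells and, of the 3 genes most like each member, the first. Other genes named were chosen after their values were seen. Gene positions are from GENCODE M21 (GRCm38), which holds all 9 members as protein-coding genes. The interval calculations were tested on simulated counts that held no variation between cells, unlike the data here. The other steps were not tested in this way. In all, 11 alternatives were planned and 1 added. Python 3.11.15, scanpy 1.11.5, leidenalg 0.10.2, scipy 1.17.1, R 4.3.3 and edgeR 4.0.16 (for TMM factors) were used.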

Additional observations from a re-analysis of the deposited data

Results flagged for a closer look

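Several genes had counting intervals on opposite sides of 0 in different cell classes, and these differences between classes were not tested. The log2 ratio of KO to control for Lcn2 was 1.30 in fibroblast-like and -0.94 in mesothelial-like cells, but the former was -0.25 without the leading cell of each library. For Hp it was 1.82 in neutrophil-like and -1.11 in fibroblast-like cells. For Il1b it was 1.39 in dendritic cell-like and -0.55 in monocyte-like cells. The former was -0.31 without the 10 leading cells, a step that takes a larger part of the KO cells. For Tnf it was 2.32 in macrophage-like and -1.77 in dendritic cell-like cells, the former being 1.16 without the leading cell, and for Socs3 1.79 in fibroblast-like and -1.23 in monocyte-like cells.

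The barcodes that the filter left out also held signal. In barcodes with fewer than 500 genes, the log2 ratio of Il1b was 2.81 (1.95 to 3.76), from 14 control and 58 KO UMIs, of which 21 lay in 1 KO barcode. In barcodes with at least 500 genes and over 10% mitochondrial UMIs, the log2 ratio of Saa3 was 5.07 (3.60 to 7.02), with 31 of 38 KO UMIs in 1 barcode, against 4 control UMIs. In the same barcodes the ratios were 0.82 for Il1b, 1.59 for Tnf, 0.69 for Nfkbia and 1.19 for Socs3, with at most 13, 5, 19 and 6 UMIs of the gene in a KO barcode.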

How the results depend on the processing

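No paired analysis was possible because each genotype had 1 library and no test was run. The KO/control log2 ratio of Saa3 in fibroblast-like cells lay between 4.64 and 4.76 under the other cell filters, with doublets kept, at Leiden resolution 1.0, with TMM or median-of-ratios factors, with each cell weighing the same and without cells holding at least 3 markers of other classes. It was 2.98 against a floor of 3 UMIs after thinning to 2000 UMIs, where 1 and 6 UMIs were expected, and no ratio could be given without the 1 or the 10 leading cells. Hp in these cells moved from -1.11 to -1.28 with each cell weighing the same, to -1.28 after thinning and to -1.81 without the 10 leading cells, and Socs3 from 1.79 to 1.59 without the 10 leading cells. Members past 2-fold higher there went from 4 to 1 (Socs3) without the 10 leading cells, and to 1 (Socs3) without the 1 leading cell, a setting chosen after seeing the data here and within clusters, while those lower went from 1 to 2 (Lcn2 and Hp) without the 10. All genes past 2-fold, 149 higher and 180 lower, became 173 and 142 with TMM factors, 173 and 144 with median-of-ratios factors, 299 and 411 with a minimum of 20 UMIs, 251 and 56 after thinning, and 44 and 1417 without the 10 leading cells, a step that takes a larger part of the smaller KO classes.

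Changes of sign were followed only for ratios whose counting interval lay clear of 0. Lcn2 in fibroblast-like cells changed sign (-0.25 without the 1 and -1.25 without the 10 leading cells). Il6 in ILC2-like cells did so too (-0.26 with the looser filter of 200 genes and 20% mitochondrial UMIs, -0.55 with doublets kept and -0.61 at resolution 1.0). So did Nfkbia in B cell-like cells (-0.0016 with the looser filter, -0.040 without the 1 and -0.79 without the 10 leading cells). Socs3 in T cell-like cells was another (-0.17 with the stricter filter of 1000 genes and 5%, and -0.24 without the 10 leading cells). Without the 10 leading cells Socs3 was -0.90 in endothelial-like and -0.13 in macrophage-like cells, and Il1b was -0.34 in macrophage-like and -0.31 in dendritic cell-like cells. The bound of Ptx3 in lymphatic endothelial-like cells, -1.40, became 0.88 after thinning, since its KO floor of 3 UMIs then stands for a higher CPM. For the other ratios the cause of a change was not tested. Of the remaining values, 439 stayed within the counting interval and 79 moved beyond it. Changes of sign among ratios whose interval held 0 are not listed and fall within these counts.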
